A study of Rattus norvegicus with 15 samples.

Results

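The genes described here encode the proteins of the mitochondrial ribosome, here in the ventral tegmental area, a dopamine-rich region of the midbrain, compared between rats drinking ethanol and rats drinking water. They were taken as the probe sets whose array annotation gives exactly 1 gene symbol beginning with Mrpl or Mrps and a digit. These were 97 probe sets for 73 genes, or 0.513% of the 14217 genes with 1 symbol, and each gene was represented by its probe set with the highest mean over all 15 arrays. By the known structure of the ribosome, 48 of the 73 belong to the large subunit and 25 to the small subunit. Mrps18a and Mrps30 are counted with the large subunit, where their proteins sit in spite of their names.

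Mitochondria keep a small genome of their own, and its messenger RNAs, which encode core subunits of the respiratory chain and the ATP synthase, are translated by a ribosome inside the organelle. The RNA of that ribosome is mitochondrial, but all of its proteins are encoded in the nucleus, made in the cytosol and imported. Part of the proteins belong to families that bacterial ribosomes also have, and part are found only in mitochondrial ribosomes. Dopamine neurons of the ventral tegmental area fire spontaneously and have a high demand for ATP, and inherited defects in several of these proteins cause disease of tissues with such demand.

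The rats belonged to the alcohol-preferring (P) line, bred for high voluntary intake, per the series title, which asks about gene expression after loss-of-control drinking. The design text mentions both high- and low-drinking lines, but the labels separate only 7 ethanol rats from 8 age-matched water rats. Each array came from 1 rat, named here by its number in the labels, and ethanol rat 3 was not analysed here. The sources used here do not give age, sex, litter or the time from the last drink. P-values therefore measure the spread between these rats, and the tissue holds all cell types of the region. Fewer cells of a type and less RNA per cell therefore cannot be told apart. Values are log2 signals, so a difference of 1 is a 2-fold difference. A probe set's signal also depends on its probes, so a higher signal of one gene than of another does not show more of its transcript.

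The tissue label was checked on dopamine neuron markers. Th, the rate-limiting enzyme of dopamine synthesis, had a mean of 14.94 ± 0.22 (SD, n = 7) with ethanol and of 14.80 ± 0.26 (SD, n = 8) with water, and Slc6a3, the dopamine transporter, 14.66 ± 0.25 and 14.51 ± 0.25. Of the 9 dopamine neuron markers on the array 8 passed the filter on dim probe sets, and none of the 5 markers of choroid plexus and ependyma did. Neither of 2 array measures passed the threshold after adjustment. The 3'-minus-5' signal of control transcripts, a sign of RNA integrity and labelling, was 1.08 ± 0.05 against 1.11 ± 0.05 (exact permutation p = 0.25, two-sided). The median correlation of an array with the others was 0.992 against 0.991 (exact permutation p = 0.0325, adjusted p = 0.0650 over both measures).

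The arrays measure transcripts, not promoters, and the promoter sequences are shown for letters that part of the members share. Windows from 250 bases before to 50 after the annotated start were taken from RefSeq (GRCr8 assembly) for 59 of the 73 genes, 1 window a gene. Both strands were searched for motifs of factors known to control nuclear genes of mitochondria. AAGATGGC, the core of the YY1 motif, was present in 14 of the 59 windows, or 23.7%, against 3.92% of the windows of all 18999 protein-coding genes in the table. CCGGAAG, an ETS motif that GABPA can bind, was present in 20, or 33.9%, against 11.2%. In the windows of 70 respiratory chain genes the YY1 letters were present in 21.4% and the ETS motif in 28.6%. In those of 41 cytosolic ribosomal protein genes the shares were 9.76% and 24.4%. The NRF1 motif, a GC-rich palindrome, was present in 9, or 15.3%, against 6.08%. Median GC content of the windows was 56.0% in the members and 55.3% over all genes, but the median number of CpG dinucleotides was 18 against 12. The NRF1 and ETS motifs contain CpG, and the part of CpG content in these shares was not tested.

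The YY1 letters are shown with their direction and place. Of the 14 matches, 12 read in the direction of the gene, and 10 begin at or after the annotated start. The other 4 begin before it, the earliest at position -220. The letters contain ATG, and their place relative to the start codon of each gene was not examined. Over all protein-coding genes 68.7% of the matches read in the direction of the gene and 47.2% began at or after the start. The direction was not particular to the members: of 15 respiratory chain windows with the letters, 13 held a match in the direction of the gene. Each line gives 30 bases, 5′ to 3′, on the strand that reads the motif, with the match in capitals.
Mrpl32: ctttccgggtaAAGATGGCagaacgcggtt
Mrpl36: cgccagaaagaAAGATGGCgtagggtcacg
Mrpl37: ctgcccgggcaAAGATGGCggcgtccaggt
Mrpl42: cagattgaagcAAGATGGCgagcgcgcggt
Mrpl46: gggaagacggaAAGATGGCggcgcccatag
Mrpl48: actcggtaacaAAGATGGCaactaatactg
Mrpl49: ttggaggagcaAAGATGGCagcaaatgtat
Mrpl50: ggagcttgtcgAAGATGGCggcgctgtgtg
Mrps18a: ggtgtgttcccAAGATGGCggccctcaggg
Mrps18b: ggatgtgcgacAAGATGGCtgcctccttgc
Mrps27: tggtacgctccAAGATGGCggcccccatgg
Mrps30: cgcggaggacaAAGATGGCggctgccaggt
Mrps6: aagattccatcAAGATGGCagccaagaccc
Mrps7: tgatagcggccAAGATGGCtgcccccgcac

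In 6 of the 14 the match is followed by ggc, and in Mrps18a it begins at the first base of the annotated transcript. The windows of Mrpl32 and Mrpl36 are the 2 that read against the gene. The Mrps18b line lies at chr20:2843023-2843052 on the plus strand, the Mrpl46 line at chr1:142116988-142117017 on the minus strand and the Mrps27 line at chr2:32474222-32474251 on the plus strand.

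The last 100 bases before the start are shown for Mrps18b, the only member with all 3 motifs in its window, for Mrpl57, which holds NRF1 and ETS matches close together, and for Mrpl23, the member with the largest positive difference between the groups. Capitals mark NRF1 and ETS matches.
Mrps18b (chr20:2842906-2843005, plus strand): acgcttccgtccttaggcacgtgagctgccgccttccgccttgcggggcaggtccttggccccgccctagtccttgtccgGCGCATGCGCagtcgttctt
Mrpl57 (chr15:36086357-36086456, plus strand): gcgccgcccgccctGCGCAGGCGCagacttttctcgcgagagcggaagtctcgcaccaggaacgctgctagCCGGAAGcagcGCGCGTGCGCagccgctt
Mrpl23 (chr1:207116830-207116929, plus strand): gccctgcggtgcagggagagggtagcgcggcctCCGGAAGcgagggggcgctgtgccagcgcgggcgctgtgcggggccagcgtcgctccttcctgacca

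The ETS match of Mrps18b spans its start and is not in the stretch shown. Mrps18b holds GCGCATGCGC, which reads the same on both strands. A match is a description of the letters, not evidence that a factor binds. Of the 59 windows, 26 held none of the 3 motifs.

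**Figure D1:**
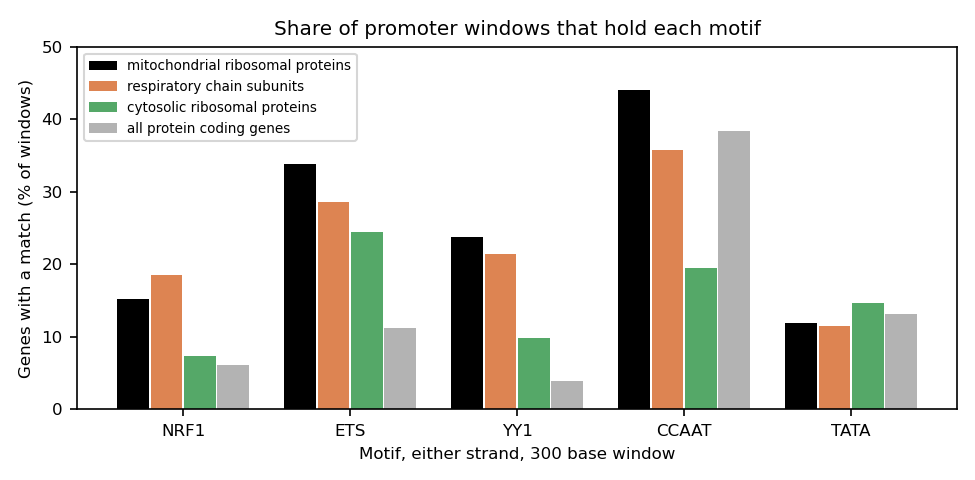
Share of RefSeq promoter windows (percent, vertical axis) that hold each motif on either strand, for 59 mitochondrial ribosomal protein genes, 70 respiratory chain genes, 41 cytosolic ribosomal protein genes and all 18999 protein-coding genes. The black and orange bars for YY1 stand at 23.7% and 21.4% against 3.92% over all genes, while those for the TATA box letters (TATAAA) stand at 11.9% and 11.4% against 13.1%.

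Part of the members also had a close neighbour on the chromosome. In 17 of the 59 genes, or 28.8%, another protein-coding gene started on the opposite strand within 1000 bases and ran away from it, against 7.12% of all genes in the table. The share was 27.1% in 70 respiratory chain genes and 9.76% in 41 cytosolic ribosomal protein genes. Mrpl46, of the large subunit, and Mrps11, of the small subunit, are such neighbours of each other, with 234 bases between their starts. Mrpl47 is paired in this way with Ndufb5, a subunit of respiratory complex I, and Mrpl49 with Fau, which encodes a protein of the cytosolic ribosome.

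All 73 genes passed the filter on dim probe sets, with means from 8.82 to 12.63. No gene of the mitochondrial ribosome passed the test between ethanol and water rats: 0 of 73 had an adjusted p below 0.05 by limma, where 0.929% of all 18625 kept probe sets did (0.387% higher and 0.542% lower in ethanol rats). The smallest adjusted p was 0.287. At an unadjusted p below 0.05 there were 3 of the 73, or 4.11%, against 12.1% of all kept probe sets. The groups overlapped in all 73 genes, and they failed to overlap in 0.623% of all kept probe sets.

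The differences were small and their intervals narrow. They ran from -0.11 to 0.10 log2 units, and 2 genes, or 2.74%, differed by more than 0.1 in size, against 22.8% of all kept probe sets. The median within-group SD of the members was 0.078, against 0.11 over all kept probe sets. In 68 of the 73 the 95% interval of the difference, taken for each gene alone, lay within 0.2 log2 units of 0, that is between 0.871-fold and 1.15-fold. The other 5 were Mrps12, Mrpl42, Mrps18c, Mrpl47 and Mrpl39, named after their values were seen, and the interval reaching farthest was that of Mrpl47, from -0.27 to 0.088. Over the chosen probe sets of all 73 genes the bounds thus lay between 0.831-fold and 1.13-fold. Further kept probe sets are not covered by these bounds. Among them were those of Mrpl51 at -0.11 (SE 0.052), Mrpl37 at -0.091 (SE 0.082) and Mrps18c at 0.042 (SE 0.070). A missed threshold does not show that the groups were equal, but larger changes than these bounds were outside the intervals of the chosen probe sets.

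**Figure D2:**
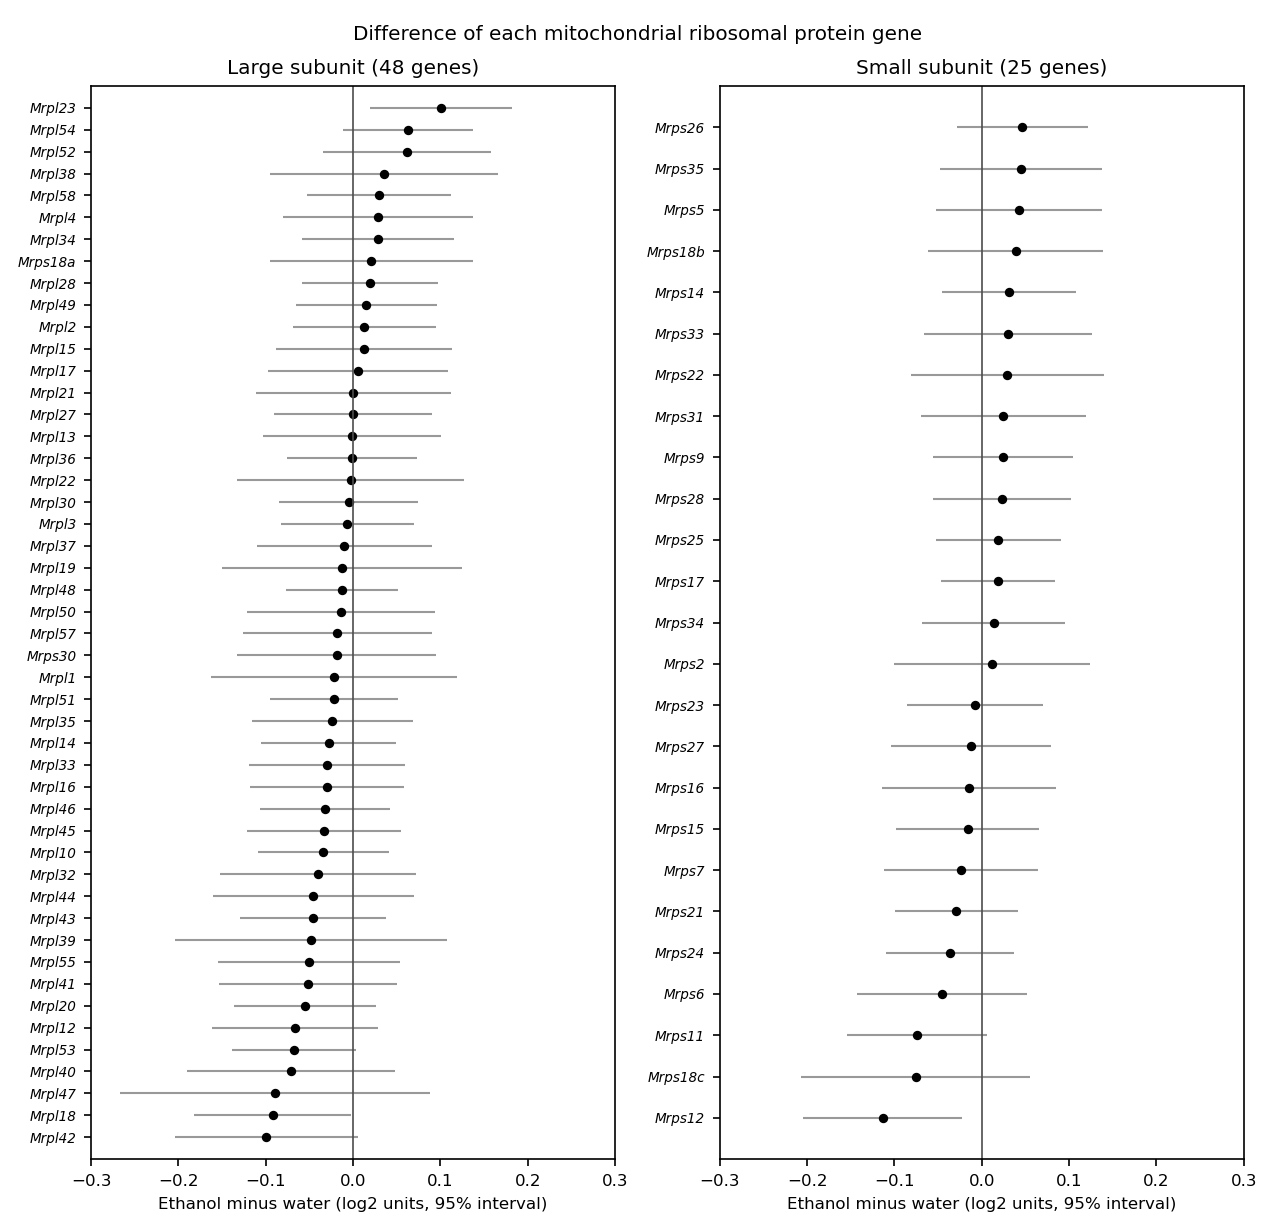
Ethanol minus water difference of each of the 73 genes (points, log2 units) with its 95% interval from limma (lines), 48 large subunit genes on the left and 25 small subunit genes on the right. Points lie between -0.11 and 0.10, and 3 intervals, those of Mrps12, Mrpl18 and Mrpl23, leave out 0.

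Mrps12 had the smallest p. It encodes the small subunit protein at the decoding site, where the codon is read. In ethanol rats its values ran from 10.06 through a median of 10.14 to 10.28, and in water rats from 10.12 through 10.28 to 10.34. The ethanol values lay mostly low, with ethanol rat 6 alone above the water mean. Means were 10.14 ± 0.07 (SD, n = 7) and 10.25 ± 0.09 (SD, n = 8), a difference of -0.11 (SE 0.043, limma adjusted p = 0.287).

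Mrpl23, a protein at the exit of the tunnel through which the new chain leaves, pointed the other way. Ethanol rats ran from 11.41 through a median of 11.50 to 11.60 and water rats from 11.33 through 11.42 to 11.51. Of the 7 ethanol rats 6 lay above the water mean, and the groups overlapped between 11.41 and 11.51. The difference was 0.10 (SE 0.038, limma adjusted p = 0.288).

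Mrpl18 is a protein of the central protuberance, the crown of the large subunit that faces the small one. Its values ran from 11.53 through 11.59 to 11.71 in ethanol rats and from 11.56 through 11.70 to 11.82 in water rats, with 1 ethanol rat above the water mean. The difference was -0.092 (SE 0.043, limma adjusted p = 0.403). The signs of these 3 genes held in all 25 alternative fits, in none of which any named member passed. The genes were picked by p in the same arrays, so the held signs are not separate support.

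In 4 genes every ethanol rat lay below the water mean without the groups separating: Mrpl53, Mrpl42, Mrps11 and Mrpl12. Mrpl53 and Mrpl12 belong to the stalk that recruits translation factors. Mrpl53 ran from 11.53 through 11.61 to 11.65 in ethanol and from 11.58 through 11.67 to 11.76 in water rats (difference -0.068, SE 0.034). Mrpl42, a mitochondria-specific protein of the large subunit, ran from 11.66 through 11.72 to 11.83 and from 11.66 through 11.83 to 11.98 (difference -0.099, SE 0.050). The lowest water rat of Mrpl42 stood level with the lowest ethanol rat, and 4 water rats lay above all ethanol rats. Mrps11, of the platform of the small subunit, ran from 9.91 through 9.99 to 10.01 and from 9.89 through 10.06 to 10.16 (difference -0.074, SE 0.038). Mrpl54, a further stalk protein, was the only member with every ethanol rat above the water mean, at 12.36 ± 0.05 against 12.29 ± 0.06 (difference 0.063, SE 0.035).

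**Figure D3:**
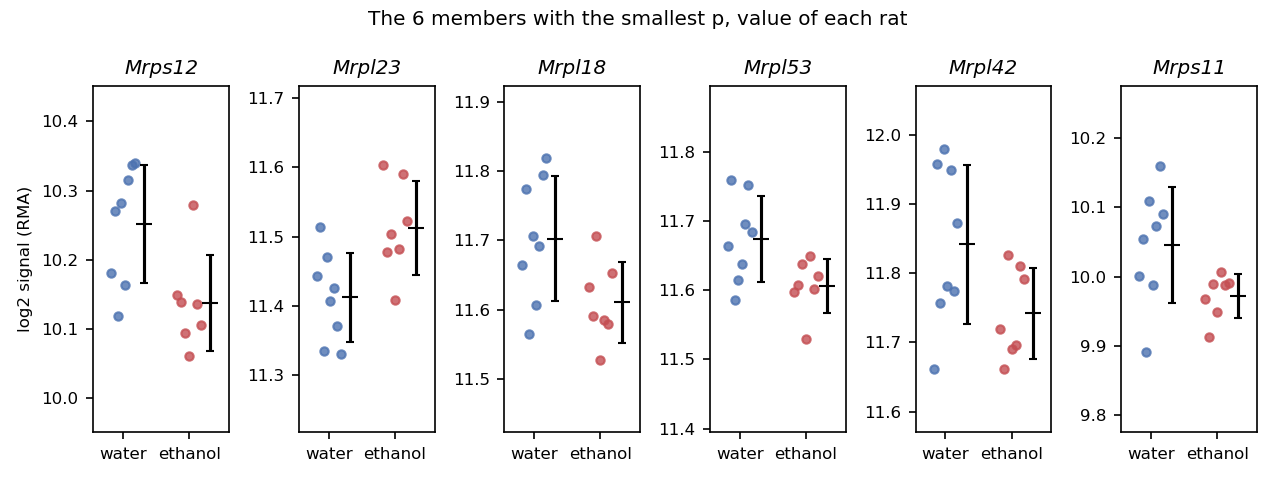
Log2 signal of each rat (points, water blue, ethanol red) for the 6 genes with the smallest p, with the mean and SD of each group in black, on vertical axes of equal length. Mrpl23 lies higher and the other 5 lower in ethanol rats, and in each panel the groups overlap.

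Other members of the same functional sites gave differences of both signs. In the stalk, Mrpl12, which carries the flexible factor-binding arm, was at -0.066 and its anchor Mrpl10 at -0.034, beside -0.068 for Mrpl53 and 0.063 for Mrpl54. Near the peptidyl transferase centre, where the peptide bond is formed, Mrpl2 was at 0.013, Mrpl3 at -0.0065 and Mrpl16 at -0.030. At the exit tunnel, Mrpl22 was at -0.0027 and Mrpl45, which holds the ribosome to the inner membrane, at -0.033, beside 0.10 for Mrpl23. In the central protuberance, Mrpl38 was at 0.036, Mrpl40 at -0.071, Mrpl46 at -0.033 and Mrpl48 at -0.013, beside -0.092 for Mrpl18. No site had its members all at the same sign, apart from sites with 1 member.

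In the small subunit, Mrps26 (0.047) and Mrps35 (0.045), both mitochondria-specific, had the smallest p among the positive differences. Mrps5, at the entry of the messenger RNA, followed at 0.043 (SE 0.045). In the large subunit, Mrpl52, also mitochondria-specific, was at 0.062 (SE 0.046), with a further kept probe set at -0.0058. Of genes whose defects cause combined respiratory chain deficiency in patients, the differences were small. Mrps16 was at -0.015, Mrps22 at 0.029, Mrps34 at 0.014 and Mrpl44, of the large subunit, at -0.045. The 3 paralogs of the bacterial S18 protein were at 0.021 for Mrps18a, 0.039 for Mrps18b and -0.076 for Mrps18c. Mrps18c had a further kept probe set at 0.042, so its direction depended on the probe set.

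Probe sets at both ends of the signal range had differences of both signs. The 4 with the highest signal, Mrpl17 (0.0059), Mrpl54 (0.063), Mrpl41 (-0.052) and Mrpl27 (-0.00034), and the 4 with the lowest, Mrpl38 (0.036), Mrps27 (-0.012), Mrpl14 (-0.028) and Mrpl2 (0.013), were chosen here by signal, which depends on the probes. In 12 genes more than 1 probe set was kept, and in 9 of these all kept probe sets had the same sign. Of the 97 member probe sets 87 were kept, and none of them passed.

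Over the list, 45 of 73 genes, or 61.6%, had lower means in ethanol rats, against 46.7% of all kept probe sets. The median difference was -0.012, against 0.0062 over all kept probe sets. The large subunit had 34 of 48 lower (median -0.016) and the small subunit 11 of 25 (median 0.014). Families shared with bacterial ribosomes (43 genes, median -0.0065) and mitochondria-specific proteins (29 genes, median -0.012) stood close together. These directions rested on single rats. The median member difference was 0.0034 without water rat 2, 0.00080 without water rat 8 and 0.0011 without ethanol rat 2. Without water rat 2, 42 of the 73 genes had higher means in ethanol rats.

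The 73 genes moved up and down together between rats of the same group. Each gene was set against its own mean over the 15 rats. In water rat 2, 69 of the 73 genes lay above their own mean, in water rat 8 63 and in water rat 7 54. In water rat 3, 3 genes lay above it, in water rat 5 7 and in ethanol rat 2 8. Over all kept probe sets the share above the mean was 50.5% in water rat 2, 41.5% in water rat 8 and 46.7% in water rat 7. It was 51.6% in water rat 3, 51.3% in water rat 5 and 55.4% in ethanol rat 2. The 4 genes below their mean in water rat 2 were Mrpl38, Mrpl49, Mrps14 and Mrps5, and the 3 above it in water rat 3 were Mrpl48, Mrpl51 and Mrps31, all named after their values were seen.

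The median deviation of the members ran from -0.10 in water rat 3 to 0.092 in water rat 2. Both ends were water rats, and the 7 ethanol rats lay between -0.064 (ethanol rat 2) and 0.025 (ethanol rat 1). Water rats 2 and 3, set side by side because they are the ends, differed by a median of 0.18 log2 units, with 70 of 73 genes higher in rat 2. The median size of the difference between the ethanol and water means was 0.029. These values are unlike measures, because group means vary less than single rats chosen as the ends. The water rats had the wider SD in 59 of the 73 genes, or 80.8%, against 67.5% of all kept probe sets and 71 of 74 respiratory chain subunits.

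**Figure D4:**
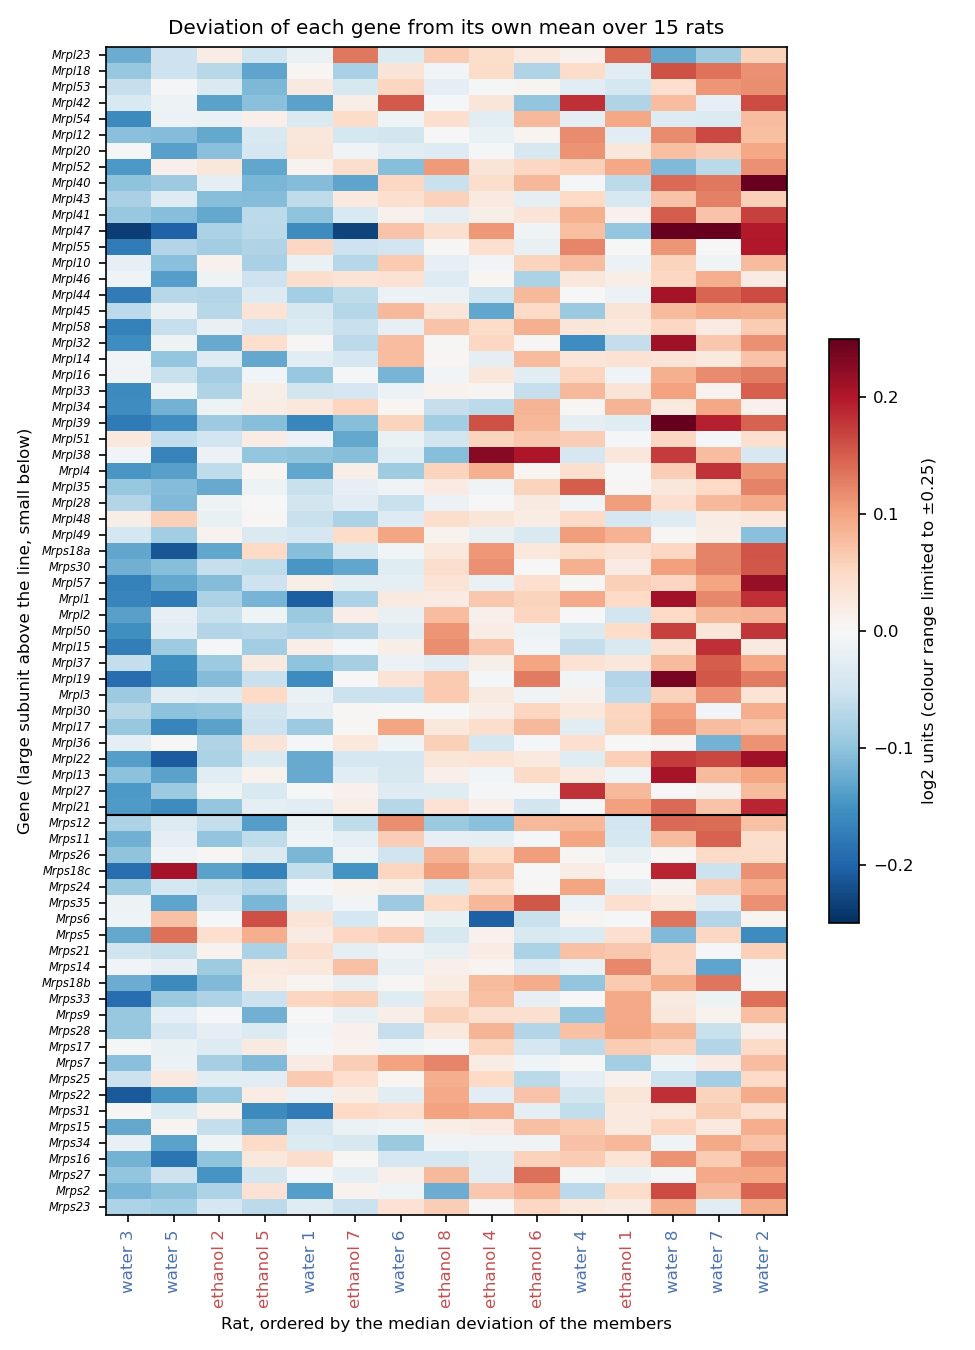
Deviation of each of the 73 genes (rows) from its own mean over 15 rats in each rat (columns, ordered by the median of the 73), in log2 units, red above and blue below, with ethanol rats labelled red and water rats blue. The columns of water rats 3 and 5 are mostly blue and those of water rats 8, 7 and 2 mostly red, while ethanol rats lie mostly in the middle.

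After each group was set to a mean of 0, the mean Pearson correlation over all pairs of the 73 genes was 0.419 across the 15 arrays, against 0.0102 over all pairs of kept probe sets. Other lists had higher values, with 0.669 in the respiratory chain subunits, 0.560 in the cytosolic ribosomal proteins, 0.771 in the myelin markers and 0.725 in the dopamine neuron markers. Among the members it was 0.504 within the large subunit and 0.284 within the small subunit. These are descriptions with no p, because the genes share the same arrays, RNA and normalization.

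Single genes carried this pattern to different degrees. Mrpl47, a protein beside the exit tunnel, had the largest within-group SD, 0.175, and ran from 10.52 through 10.82 to 11.06 in water rats and from 10.52 through 10.68 to 10.86 in ethanol rats. Mrpl39, of the large subunit, ran from 10.05 through 10.24 to 10.52 and from 10.12 through 10.14 to 10.38. Mrpl1, of the stalk at the tRNA exit side, ran from 10.54 through 10.80 to 10.95 and from 10.62 through 10.76 to 10.81. In all 3 the highest rat was water rat 8 and the span was wider in water rats. Mrpl48, of the central protuberance, had the smallest within-group SD, 0.043, at 12.03 ± 0.04 (SD, n = 8) in water and 12.02 ± 0.04 (SD, n = 7) in ethanol rats.

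The same rats were high and low in members with and without a motif. In water rat 2 the median deviation was 0.097 in the 14 genes with the YY1 letters and 0.091 in the 45 without them. For the ETS motif it was 0.094 in 20 genes and 0.091 in 39, and for NRF1 it was 0.088 in 9 genes and 0.093 in 50. In water rat 3 the values were -0.078 with and -0.12 without YY1. The neighbours Mrpl46 and Mrps11 had differences between the groups of -0.033 (SE 0.035) and -0.074 (SE 0.038).

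The respiratory chain subunits of this list, all encoded in the nucleus and not translated by this ribosome, gave values close to the members in most rats. Their median deviation was 0.125 in water rat 2, 0.144 in water rat 8 and 0.081 in water rat 7. It was -0.10 in water rat 3, -0.085 in water rat 5 and -0.079 in ethanol rat 2. The cytosolic ribosomal proteins stood at -0.0034, -0.115 and -0.083 in water rats 2, 8 and 7, and at -0.054 and 0.0043 in water rats 3 and 5. Between the groups, 67 of 74 respiratory chain subunits had lower means in ethanol rats (median -0.037), and 40 of 42 cytosolic ribosomal proteins higher ones (median 0.065). None of either list passed the threshold, but 19 of the 42 cytosolic ribosomal proteins and 1 of the 74 respiratory chain subunits had an unadjusted p below 0.05. The difference between these lists was not tested.

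**Figure D5:**
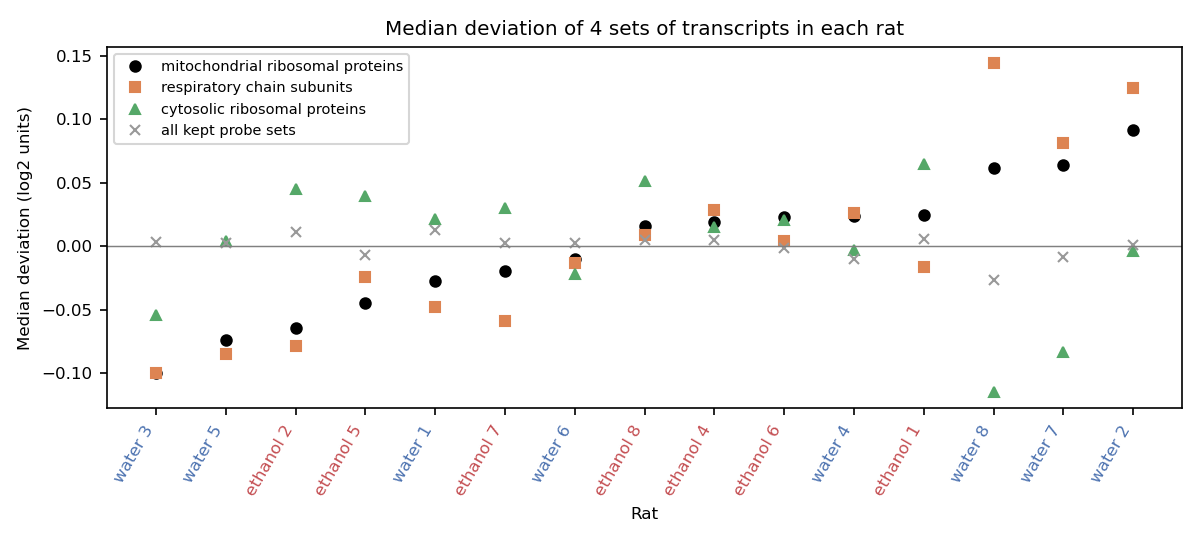
Median deviation (log2 units, vertical axis) in each rat of the 73 mitochondrial ribosomal protein genes (circles), 74 respiratory chain subunits (squares), 42 cytosolic ribosomal proteins (triangles) and all 18625 kept probe sets (crosses). The circles run from -0.10 to 0.092 and the squares from -0.10 to 0.14, while the crosses stay between -0.027 and 0.013.

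Markers of cell types moved in some of the same rats. In water rats 8 and 7, where the members were high, the median deviation of 8 dopamine neuron markers was -0.42 and -0.38, that of 13 microglial markers -0.37 and -0.32 and that of 9 general neuronal markers 0.16 and 0.11. In water rat 2 these were -0.086, -0.10 and 0.094. In water rat 3, where the members were lowest, they were 0.13, -0.15 and -0.022, and the 13 oligodendrocyte and myelin markers stood at 0.057. In water rat 5, where the members were also low, the dopamine markers stood at -0.24 and the myelin markers at 0.38. Ethanol rat 5 had both the members (-0.045) and the dopamine markers (-0.30) low, and ethanol rat 1 had both above 0 (0.025 and 0.41). Between the groups, 5 of 13 myelin markers fell and 4 of 13 microglial markers rose in ethanol rats. The median deviation of the myelin markers ran from -0.27 to 0.037 in ethanol and from -0.082 to 0.38 in water rats, and that of the microglial markers from 0.054 to 0.30 and from -0.37 to 0.087. The 3'-minus-5' signal was 1.15 in water rat 2, 1.07 in water rat 3 and 1.08 in water rat 8, within the range of the other rats. By other measures several of the rats with high or low members stood apart. The median correlation with the other arrays was lowest in water rat 7 (0.9881), water rat 8 (0.9893) and water rat 5 (0.9895). The first principal component was at -0.476 in water rat 7, -0.467 in water rat 8 and -0.278 in water rat 2, and between -0.157 and 0.303 in the other rats. Without water rats 7 and 8 the members' median difference was 0.012 and 43 of 73 were higher in ethanol rats. The part of these markers and array measures in the pattern was not tested.

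Genes that work with this ribosome were read from 5 lists. None of 64 kept genes passed, and 2 of the 64 had an unadjusted p below 0.05. Gtpbp10, a GTPase that helps to assemble the large subunit, came closest. Its values ran from 7.99 through a median of 8.18 to 8.25 in ethanol rats and from 7.90 through 7.96 to 8.09 in water rats. All 7 ethanol rats lay above the water mean, but the ranges overlapped. The difference was 0.17 (SE 0.043, limma adjusted p = 0.0954), and it passed in 2 of 24 alternative fits, with array weights (adjusted p = 0.0381) and without ethanol rat 4 (adjusted p = 0.0365). The 19 kept assembly and ribosomal RNA factors had a median of -0.0089, with 11 lower in ethanol rats.

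The list of translation factors also held the related genes Lrpprc, Slirp, Oxa1l and Mtfmt. Of its 12 kept genes 10 were lower in ethanol rats, with a median of -0.035. Gfm2, the factor that helps to recycle ribosomes after termination, was the exception with the smallest p, at 7.97 ± 0.07 (SD, n = 7) against 7.87 ± 0.10 (SD, n = 8), a difference of 0.11 (SE 0.048, limma adjusted p = 0.381). The median deviation of the list was 0.12 in water rat 2 and -0.052 in water rat 3. The mitochondrial ribosomal proteins with symbols of other kinds had 4 of 5 lower (median -0.019), with Dap3, of the head of the small subunit, at -0.054 (SE 0.034).

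The list of aminoacyl-tRNA synthetases, which charge mitochondrial tRNAs, also held Qrsl1, Gatb and Gatc, subunits of an amidotransferase and not synthetases. Of its 16 kept genes 5 were lower, among them Qrsl1 (-0.014) and Gatc (-0.012), and the median was 0.027. Gatb was at 0.059, and the tryptophan enzyme Wars2 at 0.13 (SE 0.064). The median deviation of this list was 0.019 in water rat 2 and -0.026 in water rat 3. Its mean pairwise correlation was 0.0059, against 0.248 in the list of translation factors and 0.167 in the assembly factors. Mitochondrial transcription genes and their regulators had 6 of 12 lower (median -0.0025). Mterf1, which binds mitochondrial DNA beside the ribosomal RNA genes, was at 0.064 (SE 0.032), with an adjusted p of 0.440 by limma. The factors whose motifs were searched, named for that reason, were at 0.099 (Nrf1), -0.021 (Gabpa) and -0.019 (Yy1), with adjusted p from 0.581 to 0.913.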

How the data were processed

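Expression was measured on Affymetrix rat arrays in 15 rats. The authors deposited log2 values from RMA, per the submitters' processing notes. RMA gives all arrays the same distribution of intensities, so a shift common to most transcripts is removed, and differences of dim probe sets are compressed. The version of RMA is not given in the sources used here. The labels' protocols give 25 ng of total RNA per rat as the input to a 2-cycle amplification with biotin labelling, and such copies lose 5' sequence. The table held 31099 probe sets, 57 of them controls, with 0 missing values.

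Probe sets took their symbols from GEO's platform annotation, and all 73 Entrez numbers and symbols matched a RefSeq table of GRCr8. Of the 31042 other probe sets, 18625 with a mean at or above the 40th percentile (6.94) were kept. They were fitted on group alone with limma 3.58.1 (R 4.3.3), using lmFit, eBayes and two-sided p-values. P-values were adjusted by Benjamini-Hochberg over the 18625, at a threshold of 0.05. The fit was tested on simulated data. The number of arrays limits the precision.

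The members, lists, roles and alternatives were chosen with earlier results of these data known. The rule named members past the threshold, the 6 with the smallest p in each direction, the 4 with the highest and the 4 with the lowest probe set signal, the 3 with the largest SD and fixed examples of each site, 27 listed, of which Mrpl11, Mrpl24 and Mrps36 were not analysed here. In the lists of partners it named those past the threshold and the smallest p. Same-numbered ethanol and water rats were not treated as pairs in the main fit. The 7 correlations of their deviations ran from -0.41 to 0.29, with 4 above 0.1. Such correlations cannot show whether the rats were paired in the design.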

Additional observations from a re-analysis of the deposited data

Results flagged for a closer look

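In 6 of 80 groups examined, 1 rat stood apart from the rest of its group by Dixon's 95% criterion, and chance gives that in about 1 of 20 groups. Ethanol rat 6 was highest for Mrps12, at 10.28 against 10.15 for the next rat, and for Mrpl44, at 9.79 against 9.69. Ethanol rat 1 was highest for Mrpl27, at 12.35 against 12.28. Ethanol rat 2 was lowest for Mrpl12, at 11.29 against 11.37, ethanol rat 5 was lowest for Mrpl52, at 11.15 against 11.30, and water rat 5 was lowest for Mrpl46, at 9.75 against 9.88. Without ethanol rat 6 the difference of Mrps12 was -0.14 (limma adjusted p = 0.177).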

How the results depend on the processing

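No member passed in any alternative fit run: filters on dim probe sets, array weights, centred arrays, another form of eBayes, covariates, other probe sets or leaving out rats. The lowest adjusted p of a named member was 0.161 (Mrps12, array weights). The direction over the list was not kept. Members higher in ethanol numbered 28 of 73, from 23 to 42 with 1 rat left out, 43 without both water rats 7 and 8, 11 with a covariate for the mean of the myelin list and 47 with one for the first principal component. They were 3 of 12 over the second probe sets. With 1 rat left out the median member difference ran from -0.021 to 0.0034, the median difference, large subunit, from -0.033 to 0.0018, and the median difference, small subunit, from -0.0023 to 0.025. For the large subunit it was -0.076 with the myelin covariate, 0.0083 without both water rats 7 and 8 and 0.018 with the principal component. The count of all probe sets called was 173, from 100 to 180 with 1 rat left out, 100 without ethanol rat 7, 102 without ethanol rat 8 and 290 with the myelin covariate. With the replicate number as a block 59 were called, 0 of them members, and 23 of 73 members were higher. Of 7 ethanol rats, 1 correlated best with the water rat of its own number. Partner genes called numbered 1 with array weights and from 0 to 1 with 1 rat left out. The alternatives for Gtpbp10 and the partner lists were chosen after seeing the data. The causes were not tested.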
